A study of Mus musculus with 8 samples.

Results

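The unfolded protein response and the integrated stress response were followed here through 34 genes, found by their symbols among the 23471 entries of the deposited table. The 34 genes were read in 6 roles. These are 3 stress sensors, 5 transcription factors or co-regulators, 13 chaperones and folding enzymes of the endoplasmic reticulum (ER), 4 genes of ER-associated degradation, 5 enzymes of amino acid and one-carbon metabolism, and 4 effectors downstream of the factors. The ER chaperones were kept apart from the amino acid genes throughout. All 34 genes passed the filter of a mean of at least 1 RPKM (reads scaled by gene length and library size) over the libraries.

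RNA was sequenced from hepatoblasts, the common precursors of hepatocytes and biliary epithelial cells (BECs), taken from E14.5 livers of mice of a mixed B6;129 strain. They were grown on collagen-coated plates (iHBs), treated with 12.5 ng/ml oncostatin M for 5 days per the labels towards hepatocytes (iHPs), or kept on Matrigel for 14 days towards BECs (iBECs). Each culture has 1 control library, labelled wild type. The mutant cultures, called L1L2_Alb, are labelled Lats1-/-;Lats2f/fl;Alb-cre, with 1 iHB, 2 iHP and 2 iBEC libraries. *Lats1* is lost from all cells of these mice, whereas *Lats2* is deleted only in cells in which the albumin promoter drives Cre, so other cells of the liver keep *Lats2*. The sources used here do not say whether libraries come from separate embryos, so a spread between libraries may be technical.

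Cells sense unfolded proteins in the ER through the membrane proteins PERK, IRE1 and ATF6. IRE1 splices *Xbp1* RNA, and spliced XBP1 and cleaved ATF6 act on genes of chaperones and of the degradation of misfolded proteins. PERK and related kinases phosphorylate the initiation factor eIF2α, which lowers translation at large and favours that of ATF4, a factor acting on amino acid synthesis and uptake. Hepatocytes secrete much of the protein of blood plasma and hold a large ER. Much of both responses is set by splicing, cleavage, phosphorylation and translation, and a gene-level RNA value does not show these steps.

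Genes acted on by ATF4 often carry a C/EBP-ATF response element in their promoter, and the stretches that hold one are shown for 4 members. RefSeq promoter windows (GRCm38.p6) of 250 bases before to 50 bases after the start were at hand for 31 of the 34 genes, that is, all but *Hyou1*, *Manf* and *Atf6*. The element, searched as TGATGNAA on both strands, was found in 5 of the 31 genes (16.1%), in 0 of the 11 chaperone genes with a window, and in 1304 of 32851 windows of all genes (3.97%). The members were counted by gene, with 33 windows for the 31 genes, and all genes by window, so these shares differ in unit. Each line is 50 bases, 5′ to 3′ along the strand of the gene, and capitals mark the element in either orientation.
Asns (chr6:7693210-7693259, - strand): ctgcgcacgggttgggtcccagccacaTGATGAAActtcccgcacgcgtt
Chac1 (chr2:119351028-119351077, + strand): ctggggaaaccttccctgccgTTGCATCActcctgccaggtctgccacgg
Nupr1 (chr7:126625552-126625601, - strand): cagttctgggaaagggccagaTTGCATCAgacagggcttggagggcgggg
Herpud1 (chr8:94386296-94386345, + strand): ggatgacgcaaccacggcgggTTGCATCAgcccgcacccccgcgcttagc
*Trib3* also held this element, which lies after its start. A match is a description of the letters and not a binding site.

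Depth was 18436865 to 33229075 reads per library, as recovered from the steps of short genes, and would take in any scaling of a library before deposit. The labels of the mutant libraries were not checked by the targeted genes. *Lats1* was at 5.38 to 11.2 RPKM in the control libraries and 7.12 to 22.7 RPKM in the libraries labelled L1L2_Alb, and *Lats2* at 6.90 to 10.1 RPKM and 10.9 to 27.6 RPKM, with *Lats1* below the control of its stage in 1 of 5 libraries and *Lats2* in 0 of 5. A whole-gene value does not single out the deleted part, and every direction given below follows the labels. The cultures were mixed in markers. The summed level of 8 hepatocyte markers was 5383 to 11260 RPKM in control libraries and 6585 to 10162 RPKM in L1L2_Alb libraries, and none of the 8 was at 0. This sum can rest on 1 abundant gene, as *Apoa1* gave 8670 of 9321 RPKM in L1L2_Alb iHB, against 2451 of 5383 RPKM in control iHB. The median log2 difference of the 8 markers from the stage control was -1.59 in iHB, -2.56 and -2.18 in iHP, and -0.35 and -0.74 in iBEC. 4 of these 8 passed the genotype test described below, all lower in L1L2_Alb libraries. *Hnf4a*, a defining hepatocyte factor, was at 48.4 to 99.5 RPKM in control and 20.2 to 45.6 RPKM in L1L2_Alb libraries, *Alb* at 2485 to 6162 RPKM and 524 to 5499 RPKM, and the BEC keratin *Krt19* at 83.7 to 273 RPKM and 254 to 493 RPKM. In control iHB, iHP and iBEC, *Hnf4a* was at 48.4, 64.4 and 99.5 RPKM, *Alb* at 2485, 3088 and 6162 RPKM, and *Krt19* at 273, 168 and 83.7 RPKM. Among controls, iBEC was thus highest in both hepatocyte genes and lowest in this keratin. Other biliary markers went both ways, with *Krt7* at 400, 361 and 62.3 RPKM and *Spp1* at 1706, 3188 and 23271 RPKM. Stage names below are those of the culture, not of the markers. The sum of 8 mesenchymal markers was 2638 to 4584 RPKM in control and 728 to 3657 RPKM in L1L2_Alb libraries, and that of 6 macrophage markers 1340 to 2178 RPKM and 680 to 3107 RPKM, with no marker of either list at 0. The sums of 4 endothelial markers were 1.45 to 5.25 RPKM and 1.70 to 4.36 RPKM, with *Stab2* at 0 in 1 library. In such bulk samples fewer cells of a type and less RNA per cell cannot be told apart, and the part of the cell mixture in the results below was not tested.

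The first question was whether the stress genes differed between L1L2_Alb and control cells across the 3 cultures. All genes were fitted together with limma on log2(RPKM + 1) with the culture stage as a covariate, so fold changes are on that scale. 4 of the 34 genes passed an adjusted p of 0.05 (11.8%), against 9.57% of the 13421 genes tested, so the share of members was near that of all genes. *Ppp1r15a* rose, where 6.20% of all genes were called higher, and *Xbp1*, *Atf5* and *Shmt2* fell, where 3.37% were called lower. The split of all calls, 832 higher and 452 lower, moved with the scaling, to 612 and 577 with upper-quartile scaling and 688 and 616 with quantile normalization. 7 members were higher in all 5 L1L2_Alb libraries than in the control of their stage (20.6%, against 22.9% of all genes) and 4 were lower in all 5 (11.8%, against 10.1%), so 11 kept a direction in all 5 (32.4%, against 33.0%). None of the 13 chaperones passed the test, with 9 fold changes above 0 and 4 below and a median of 0.06, beside 55.8% of all genes above 0 and a median of 0.06. With upper-quartile scaling the split of the chaperones turned to 6 above and 7 below.

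**Figure D1:**
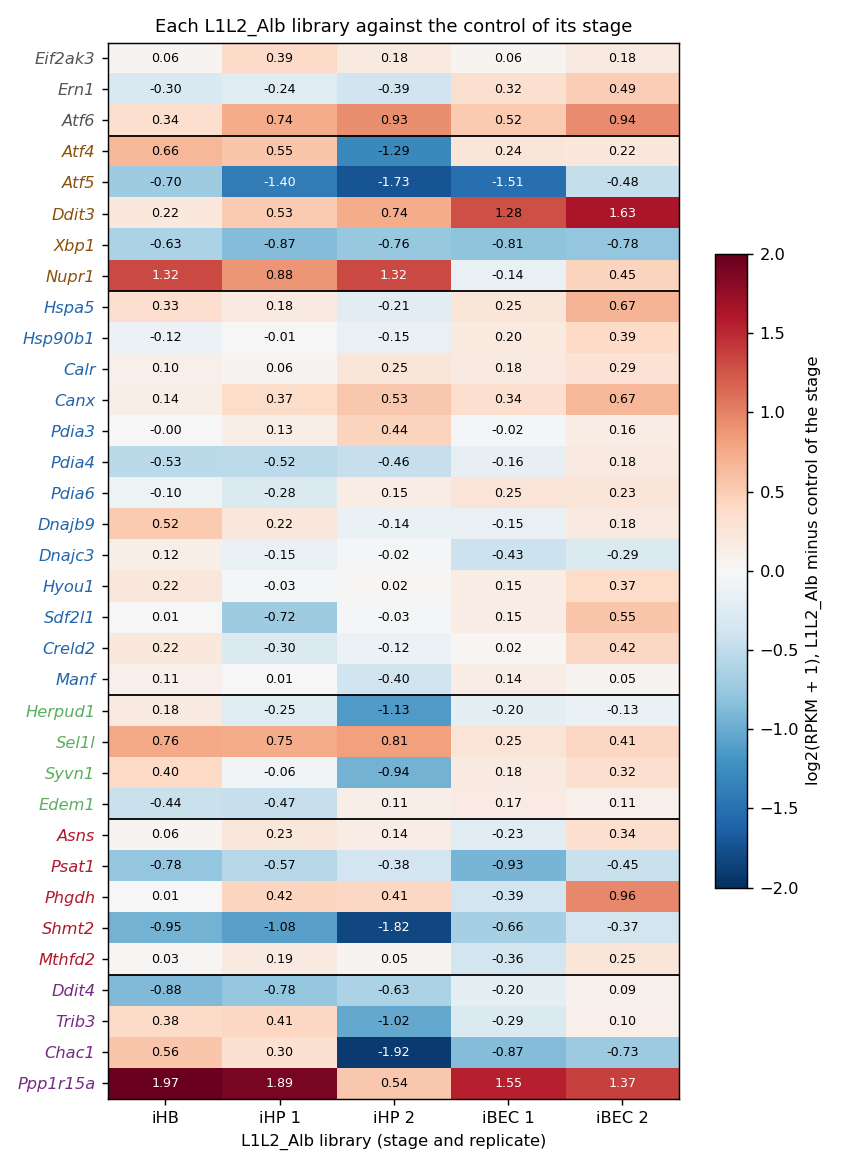
Difference in log2(RPKM + 1) between each L1L2_Alb library and the single control library of its stage for the 34 genes, one row per gene and one column per library, with red for higher and blue for lower. *Ppp1r15a* is red and *Xbp1*, *Atf5* and *Shmt2* are blue in all 5 columns, while the chaperone rows lie between -0.72 and 0.67.

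Of the sensors, none passed the test. *Eif2ak3*, which encodes PERK, was at 8.71 to 15.9 RPKM over the 8 libraries and *Ern1*, which encodes IRE1, at 9.29 to 19.8 RPKM. *Atf6* was at 14.1, 12.4 and 6.88 RPKM in control iHB, iHP and iBEC, and at 18.2 RPKM in L1L2_Alb iHB, 21.4 and 24.4 RPKM in iHP, and 10.3 and 14.1 RPKM in iBEC. It was higher in all 5 L1L2_Alb libraries than in their control, yet its log2 fold change of 0.66 (SE 0.189) missed the threshold (adjusted p = 0.0646 from limma).

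*Xbp1* fell in L1L2_Alb cells. Control levels were 83.3 RPKM in iHB, 132 RPKM in iHP and 179 RPKM in iBEC. L1L2_Alb levels were 53.5 RPKM in iHB, 71.8 and 77.4 RPKM in iHP, and 102 and 104 RPKM in iBEC. The control was the highest library of its stage in each culture, and both genotypes held the order iHB, iHP, iBEC. Its log2 fold change was -0.76 (SE 0.148, adjusted p = 0.0194 from limma), and the 5 single differences lay between -0.87 and -0.63. The call was kept when any single library of a pair was left out and was lost when a whole stage was left out, with adjusted p = 0.0913 without iHB, 0.131 without iHP and 0.0935 without iBEC. These are gene-level reads, so spliced and unspliced *Xbp1* were not separated.

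*Atf5*, a factor translated under phosphorylated eIF2α like ATF4 and abundant in liver, also fell. It was at 69.9 RPKM in control iHB, 87.2 RPKM in control iHP and 119 RPKM in control iBEC. In L1L2_Alb cells it was at 42.5 RPKM in iHB, 32.4 and 25.7 RPKM in iHP, and 41.1 and 85.4 RPKM in iBEC. Every L1L2_Alb library was below its own control, but iBEC replicate 2 was above the control iHB library. Across the stages it changed by -1.12 on the log2 scale (SE 0.273, adjusted p = 0.0391 from limma). This call was lost without L1L2_Alb iHP replicate 1 (adjusted p = 0.0742), iHP replicate 2 (0.0668) or iBEC replicate 1 (0.0529), and with no filter on low values (0.0875).

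*Atf4* itself did not pass the test. Its level was 125, 122 and 107 RPKM in control iHB, iHP and iBEC. It was 197 RPKM in L1L2_Alb iHB, 180 and 49.4 RPKM in iHP, and 127 and 125 RPKM in iBEC. The L1L2_Alb libraries were above their control except for iHP replicate 2, the lowest of all 8. Its fitted log2 fold change was 0.13 (SE 0.392, adjusted p = 0.875 from limma), with the largest standard error among the factors, and its sign turned to -0.07 with quantile normalization.

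*Ddit3*, which encodes the pro-apoptotic factor CHOP, was at 40.1, 34 and 28.8 RPKM in control iHB, iHP and iBEC. L1L2_Alb levels were 46.8 RPKM in iHB, 49.6 and 57.6 RPKM in iHP, and 71.6 and 91.1 RPKM in iBEC. The highest control library was below the lowest L1L2_Alb library. The differences from the controls were 0.22 in iHB, 0.53 and 0.74 in iHP, and 1.28 and 1.63 in iBEC on the log2 scale. The log2 fold change over the stages was 0.82 (SE 0.239), which missed the threshold with adjusted p = 0.0692 from limma. It passed under none of the 13 other settings run (adjusted p from 0.0663 to 0.302). *Nupr1*, a small stress-induced chromatin co-regulator, ranged from 102 to 404 RPKM with a log2 fold change of 0.81 (SE 0.267, adjusted p = 0.0947 from limma), and passed without L1L2_Alb iBEC replicate 1 (adjusted p = 0.0459) and without the iBEC stage (0.0354).

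*Ppp1r15a* encodes GADD34, which directs a phosphatase to eIF2α and so relieves the block of translation. It was at 19.6, 18.4 and 19.8 RPKM in the control iHB, iHP and iBEC libraries. L1L2_Alb levels were 79.7 RPKM in iHB, 71.0 and 27.2 RPKM in iHP, and 59.8 and 52.6 RPKM in iBEC. The controls were nearly level over the stages and every L1L2_Alb library was above all of them, with iHP replicate 2 closest. Across the stages it rose by 1.51 on the log2 scale (SE 0.305, adjusted p = 0.0216 from limma). It was the largest in size among the 34 genes and the call was kept without any single library of a pair, but was lost without iHB (adjusted p = 0.118) and without iBEC (0.0626), and with no filter (0.0613).

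**Figure D2:**
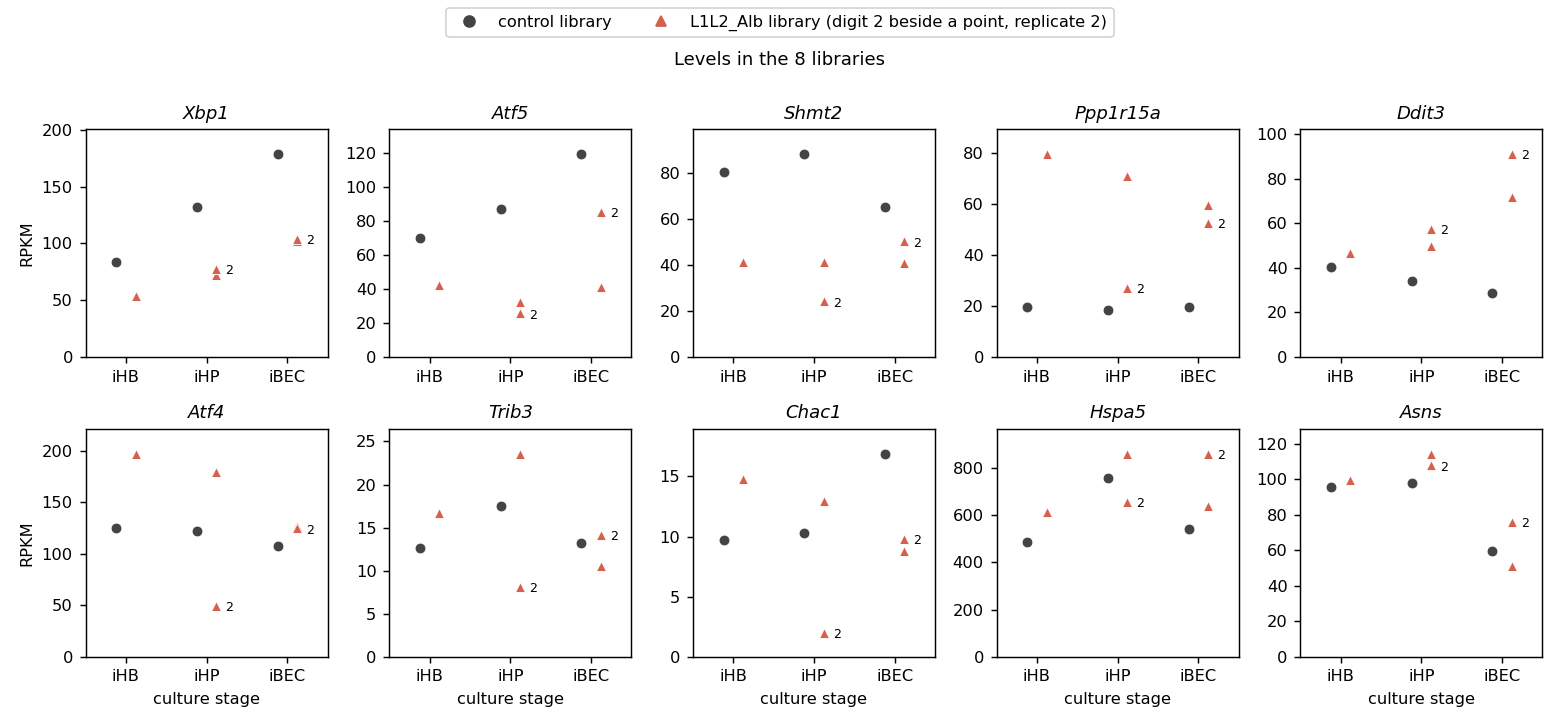
Level in RPKM of 10 of the genes in each of the 8 libraries by culture stage, with black circles for control and red triangles for L1L2_Alb libraries and each axis starting at 0. *Xbp1* lies lower and *Ppp1r15a* higher in every L1L2_Alb library of a stage, and iHP replicate 2 stands below replicate 1 for *Atf4*, *Trib3*, *Chac1* and *Ppp1r15a*.

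The mean level of the chaperones over the 8 libraries ran from 30.0 RPKM for *Dnajb9* to 836 RPKM for *Calr*, the highest of the 34 genes. *Hspa5* encodes BiP, the main ER chaperone and the protein that holds the sensors inactive. It was at 488 RPKM in control iHB, 759 RPKM in control iHP and 540 RPKM in control iBEC. L1L2_Alb levels were 613 RPKM in iHB, 861 and 657 RPKM in iHP, and 640 and 861 RPKM in iBEC. The L1L2_Alb library was above the control in all but iHP replicate 2, and the genotypes overlapped widely. The log2 fold change was 0.25 (SE 0.213, adjusted p = 0.511 from limma). *Calr*, a calcium-binding lectin chaperone, was at 647 to 1012 RPKM and its membrane relative *Canx* at 107 to 213 RPKM, and both were higher in all 5 L1L2_Alb libraries without passing (log2 fold change 0.17, adjusted p = 0.624 for *Calr*, and 0.38, adjusted p = 0.199 for *Canx*, from limma). The HSP90 of the ER, *Hsp90b1*, was at 322 to 619 RPKM, and the disulfide isomerases *Pdia3*, *Pdia4* and *Pdia6* at 382 to 576, 69.6 to 170 and 313 to 474 RPKM. *Pdia4* had the lowest fold change of the chaperones at -0.32 (SE 0.181, adjusted p = 0.314 from limma). The J-domain co-chaperones *Dnajb9* and *Dnajc3*, the exchange factor *Hyou1* and the smaller ER-resident proteins *Sdf2l1*, *Creld2* and *Manf* had fold changes between -0.13 and 0.16.

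**Figure D3:**
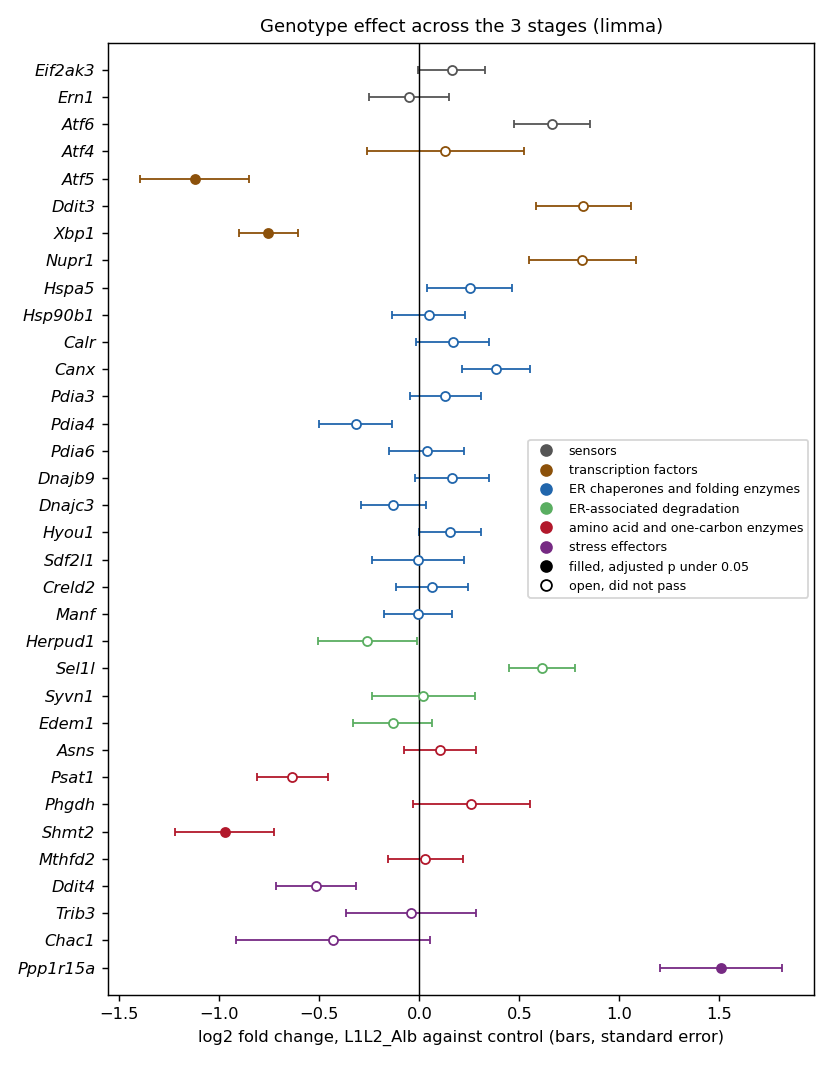
Log2 fold change of L1L2_Alb against control across the 3 stages on log2(RPKM + 1) for the 34 genes, with bars for the standard error, colours for the role and filled points for adjusted p under 0.05 by limma. The 13 chaperones lie between -0.32 and 0.38 and the filled points are *Ppp1r15a* at 1.51, *Xbp1* at -0.76, *Shmt2* at -0.97 and *Atf5* at -1.12.

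Among the genes of ER-associated degradation, which returns misfolded proteins to the cytosol for the proteasome, none passed. *Sel1l*, the scaffold of the HRD1 ligase, was at 28.6, 30.1 and 27.3 RPKM in control iHB, iHP and iBEC. It was at 49.1 RPKM in L1L2_Alb iHB, 51.1 and 53.7 RPKM in iHP, and 32.7 and 36.6 RPKM in iBEC. All 5 were above every control, and the log2 fold change of 0.61 (SE 0.165) was just outside the threshold with adjusted p = 0.0551 from limma. *Syvn1*, which encodes HRD1 itself, was at 20.1 to 39.5 RPKM with a fold change of 0.02, and *Herpud1* and *Edem1* were at -0.26 and -0.13 (adjusted p = 0.564 and 0.729 from limma).

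The 5 amino acid and one-carbon enzymes did not move as a block. *Shmt2*, the mitochondrial serine hydroxymethyltransferase, fell. It was at 80.3, 88.5 and 65.3 RPKM in control iHB, iHP and iBEC, and at 41.2 RPKM in L1L2_Alb iHB, 41.3 and 24.3 RPKM in iHP, and 40.9 and 50.3 RPKM in iBEC. The L1L2_Alb libraries were all below the lowest control. The log2 fold change was -0.97 (SE 0.246, adjusted p = 0.0450 from limma), and the call was lost without L1L2_Alb iHP replicate 1 (adjusted p = 0.0645), iBEC replicate 1 (0.0692) or iBEC replicate 2 (0.0573), with no filter (0.0903) and with no trend (0.0545). *Psat1*, an enzyme of serine synthesis, was lower in all 5 as well (-0.64, SE 0.179), missed the threshold with adjusted p = 0.0617 and passed with upper-quartile scaling (0.0306) and quantile normalization (0.0139).

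*Asns*, the asparagine synthetase and a classical target of ATF4, was at 95.8, 97.7 and 59.8 RPKM in control iHB, iHP and iBEC. L1L2_Alb levels were 99.9 RPKM in iHB, 115 and 108 RPKM in iHP, and 50.9 and 76.0 RPKM in iBEC. The genotypes overlapped in iBEC and were close in iHB. The log2 fold change was 0.10 (SE 0.179, adjusted p = 0.770 from limma), and it turned to -0.01 with upper-quartile scaling and -0.12 with quantile normalization. *Phgdh*, the first enzyme of serine synthesis, and *Mthfd2*, of mitochondrial folate metabolism, had fold changes of 0.26 and 0.03 (adjusted p = 0.632 and 0.942 from limma).

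Of the other effectors, *Trib3*, a pseudokinase that damps ATF4 and CHOP, was at 12.6, 17.5 and 13.2 RPKM in control iHB, iHP and iBEC. L1L2_Alb levels were 16.7 RPKM in iHB, 23.6 and 8.15 RPKM in iHP, and 10.6 and 14.2 RPKM in iBEC. The L1L2_Alb pair of iHP lay on both sides of its control, as did that of iBEC. The log2 fold change was -0.04 (SE 0.324, adjusted p = 0.954 from limma), and its sign turned without iHP replicate 2 (0.20). *Ddit4*, an inhibitor of mTORC1, was lower in 4 of 5 (-0.52, SE 0.199, adjusted p = 0.144 from limma), and *Chac1*, which degrades glutathione, was at 2.00 to 16.9 RPKM (-0.43, SE 0.483, adjusted p = 0.633 from limma).

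The 2 L1L2_Alb iHP libraries differed most in a small group of these genes, noticed after the values were seen. Replicate 2 minus replicate 1 was -2.22 for *Chac1*, -1.84 for *Atf4*, -1.43 for *Trib3* and -1.35 for *Ppp1r15a* on the log2 scale. Their places among all genes tested were the percentiles 0.64, 1.3, 2.96 and 3.49 of this difference. *Chac1* rested on 67 reads in replicate 2 (2.00 RPKM, exact Poisson 95% interval 1.55 to 2.54, counting error only). *Herpud1*, *Syvn1* and *Shmt2* were at -0.88, -0.88 and -0.74. *Ddit3* went the other way by 0.21, and *Asns*, *Psat1* and *Phgdh* differed by -0.09, 0.19 and -0.01. Further lists read below were also lower in replicate 2. Against control iHP, the median log2 difference of 14 other amino acid genes was 0.15 in replicate 1 and -0.63 in replicate 2. That of 12 tRNA synthetases was 0.12 and -0.39, beside 0.01 and -0.03 for all genes. As a check for duplicate libraries, the chi-square per degree of freedom over the 26 members with whole reads recovered was 281.1 in this pair and 155.8 in the iBEC pair, and each library was counted on its own.

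The genotype effect was next compared between the stages. No gene passed the limma F test of that difference in the whole table (0% called, 733 genes at unadjusted p under 0.05), and among the 34 genes the smallest unadjusted p was 0.124, for *Ddit3*. With 2 residual degrees of freedom in that fit and a single control per stage, a deviation of that control enters both differences of the stage.

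The second question was how the genes differed between the culture stages, with genotype as a covariate. Between iHP and iHB, 0 of the 34 genes and 0% of all genes passed limma's adjusted p of 0.05, while 1158 of all genes had an unadjusted p under 0.05. All 13 chaperones had fold changes above 0, with a median of 0.40, whereas 32.1% of all genes were above 0 with a median of -0.15. The chaperones were above 0 in 13 of 13 also with upper-quartile scaling and with quantile normalization (medians 0.52 and 0.48). In control cells alone 12 of 13 were higher in iHP than in iHB with a median difference of 0.54, beside 23.7% of all genes, and in L1L2_Alb cells 13 of 13 with 0.35, beside 41.9% of all genes. The largest was *Creld2* at 0.75 (SE 0.223, adjusted p = 0.422 from limma). The amino acid enzymes had a median of -0.03 with 2 of 5 above 0, and the degradation genes 0.06.

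Between iBEC and iHB, *Xbp1* rose by a log2 fold change of 1.00 (SE 0.185, adjusted p = 0.0192 from limma). It was the one member called, beside 5.72% of all genes (2.94% higher and 2.78% lower). That call was lost without L1L2_Alb iBEC replicate 1 (adjusted p = 0.0537) and without replicate 2 (0.0546). The chaperones had 10 of 13 fold changes above 0 with a median of 0.24, where 29.3% of all genes were above 0 with a median of -0.25, and *Pdia4* was the highest at 0.88 (SE 0.226, adjusted p = 0.0618). The 3 sensors were all below 0 with a median of -0.72. The amino acid enzymes had 4 of 5 below 0 and a median of -0.68, led by *Mthfd2* at -0.84 (SE 0.231, adjusted p = 0.0786) and *Asns* at -0.68 (SE 0.223, adjusted p = 0.1204), and *Psat1* stood apart at 0.67 (SE 0.223, adjusted p = 0.125). Relative scaling mattered here, since upper-quartile scaling moved the median of all genes from -0.25 to -0.00, the amino acid median to -0.40 with 3 of 5 below 0, and the number of members called to 5, all higher, *Creld2*, *Hsp90b1*, *Pdia4* and *Psat1* beside *Xbp1*.

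Between iBEC and iHP, 0 of the 34 genes were called by limma, beside 4.12% of all genes (2.45% higher and 1.67% lower), and 41.6% of all genes had fold changes above 0. *Atf6* (-0.83, SE 0.208, adjusted p = 0.0666) and *Asns* (-0.78, SE 0.198, adjusted p = 0.0679) came nearest among the sensors and amino acid enzymes, both lower in iBEC.

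**Figure D4:**
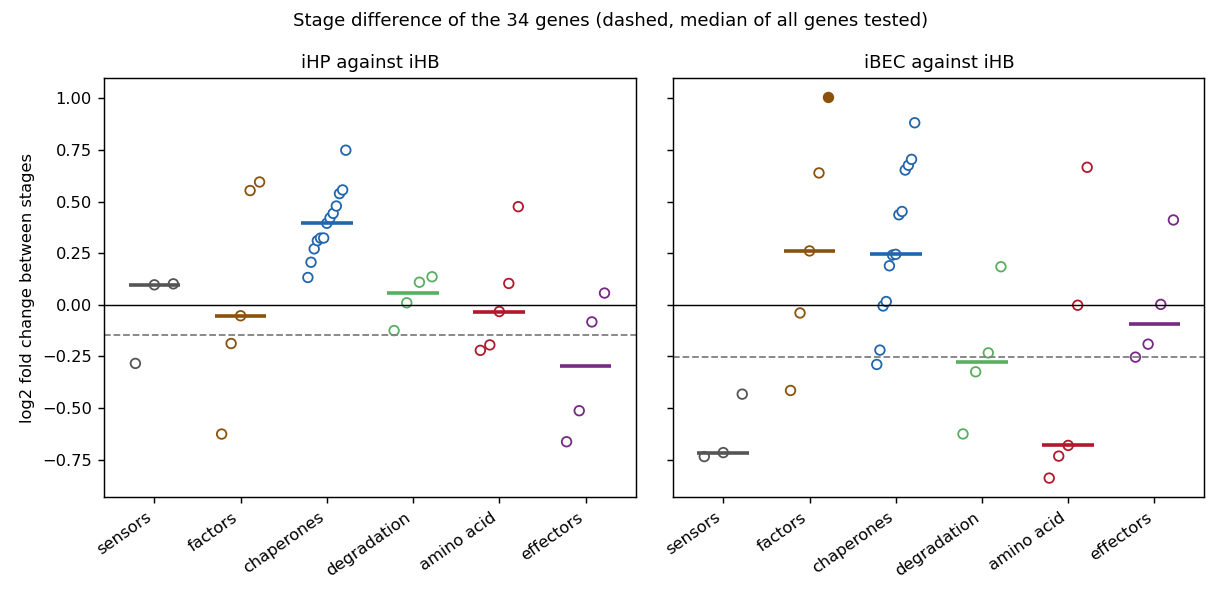
Log2 fold change of the 34 genes between stages, iHP against iHB on the left and iBEC against iHB on the right, one point per gene by role, with bars for the median of a role and a dashed line for the median of all genes tested. The chaperones lie above the dashed line in iHP, with a median of 0.40 against -0.15, and the amino acid enzymes apart from *Psat1* and *Shmt2* lie below it in iBEC. The filled point is *Xbp1* at 1.00.

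Further genes of the same pathways were read against the shares of all genes called for genotype, 6.20% higher and 3.37% lower. Of 17 other ER folding genes 2 rose across the stages and none fell in the genotype fit, of 15 genes of ER translocation 1 rose, and of 12 other degradation genes none passed, with 11 of 12 above 0, beside 55.8% of all genes, and a median of 0.30, which was 0.19 with upper-quartile scaling and 0.14 with quantile normalization. Of 14 other amino acid transporters and enzymes 1 fell, of 12 tRNA synthetases 1 rose, and of 20 other stress genes tested 1 rose and 1 fell. The largest increases were *Wars*, the tryptophanyl-tRNA synthetase (1.08, SE 0.281, adjusted p = 0.0494), *Creb3l2*, an ER-bound factor (0.89, SE 0.199, adjusted p = 0.0303), and *Calu*, a calcium-binding ER protein (0.87, SE 0.193, adjusted p = 0.0303). The decreases were *Creb3l3*, a liver-rich ER-bound factor (-1.22, SE 0.232, adjusted p = 0.0174), and *Aldh1l2*, of mitochondrial folate metabolism (-1.21, SE 0.263, adjusted p = 0.0285), all from limma. *Creb3l3* kept its call without any single library of a pair, but lost it without iHB (adjusted p = 0.0987 from limma) and without iHP (0.0934). The other 4 lost theirs without L1L2_Alb iHP replicate 1 (adjusted p = 0.0859 for *Wars*, 0.0571 for *Creb3l2*, 0.0515 for *Calu* and 0.0576 for *Aldh1l2*). They lost it also without iBEC replicate 2 (0.095, 0.0592, 0.0684 and 0.0682), and *Wars* without iHP replicate 2 (0.0769). The same 4 were lost with no filter on low values (0.103, 0.0568, 0.0576 and 0.0754), without iHB and without iHP. *Calu* was lost without iBEC as well (0.0551 from limma). Upper-quartile scaling and quantile normalization each took the call of *Wars* (0.0714 and 0.0711) and of *Creb3l2* (0.0583 and 0.077). *Wars* was lost as well with a pseudocount of 0.1 (0.0521) and with no trend (0.0579).

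Between iBEC and iHB, *Creb3l3* rose (1.47, SE 0.289, adjusted p = 0.0247) and *Slc7a1*, a carrier of cationic amino acids, fell (-1.75, SE 0.391, adjusted p = 0.0396), and both calls were lost without L1L2_Alb iBEC replicate 1 (0.0665 and 0.0985) or replicate 2 (0.0676 and 0.0645). The call of *Slc7a1* was lost also with upper-quartile scaling (0.0803 from limma) and quantile normalization (0.0579), and passed in 5 of 10 other settings. That of *Creb3l3* was lost also with no filter (0.0557), and passed in 7 of 10. Between iBEC and iHP, *Cebpb*, a partner of ATF4 on C/EBP-ATF elements, rose (1.10, SE 0.216, adjusted p = 0.0335), and *Creb3l2* (-0.98, SE 0.220, adjusted p = 0.0489) and *Sec62*, of the translocation channel (-0.92, SE 0.188, adjusted p = 0.0384), fell, all by limma. These 3 calls were lost without L1L2_Alb iHP replicate 1 (0.126, 0.160 and 0.130), iBEC replicate 1 (0.0992, 0.177 and 0.143) or iBEC replicate 2 (0.115, 0.149 and 0.125). Over the 12 other settings run, *Cebpb* passed in 7, and *Creb3l2* and *Sec62* in only 3 each.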

How the data were processed

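RNA was prepared with a TruSeq v2 kit and sequenced on Illumina HiSeq equipment in 8 libraries. The submitters' processing notes name Bowtie 0.12.2 and mm8. The counting method, its use of strand and the annotation are not given in the sources used here, so reads shared with overlapping genes or near-identical copies could not be checked. The deposited values were taken as RPKM, a unit inferred from the whole-read steps of short genes. No scaling between libraries was added in the main fit. Whether the libraries were scaled before deposit cannot be seen from these steps, since depth was recovered from the same values. 4 entries of 2 repeated symbols were left out, which left 23467 genes.

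On the log2(RPKM + 1) scale, the 13421 genes whose mean reached 1 RPKM entered a linear model in limma 3.58.1 under R 4.3.3 (stage and genotype, eBayes with trend, 4 residual degrees of freedom). All p-values are two-sided and Benjamini-Hochberg adjusted over all genes tested unless called unadjusted, with a threshold of 0.05. The difference between stages used the moderated F test. For 26 of the 34 genes the values gave back whole reads (within 0.02 of a whole number) which served only for depth and counting error. The procedure was run on simulated data with independent normal noise for each gene and library. These hold no deviation shared across the genes of a library, so the run could not show the effect of one. Alternatives were a pseudocount of 0.1, upper-quartile scaling (percentile 75), quantile normalization, no filter, a mean of 5 RPKM, no trend, and leaving out single L1L2_Alb libraries of a pair or a stage.

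The members and lists were chosen with earlier results of these data known. The result of 1 marker list is not reported here. Levels in every library are given for genes past the threshold and for *Hspa5*, *Atf4*, *Ddit3*, *Asns*, *Trib3* and *Xbp1*, with *Atf6* and *Sel1l* added after their values were seen. From the other lists the 3 largest changes in each direction past the threshold are named. Promoter windows came from RefSeq (GRCm38.p6), and the C/EBP-ATF element was searched by its letters. Python 3.11.15, numpy 2.4.6, pandas 2.3.3 and matplotlib 3.10.9 were used.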

Additional observations from a re-analysis of the deposited data

Results flagged for a closer look

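5 of the 34 genes moved in opposite directions in the 2 stages that have a pair of L1L2_Alb libraries, with both iHP libraries below and both iBEC libraries above the control of their stage. This share (14.7%) was near that of all genes tested that moved one way in one stage and the other way in the other (16.0%), and each stage rests on 1 control library. The mean difference from control in iBEC minus that in iHP, in log2(RPKM + 1), was 0.72 for *Ern1* (0.41 in iBEC, -0.32 in iHP), the IRE1 sensor, and 0.75 for *Syvn1* (0.25 and -0.50), the HRD1 ligase. Among the chaperones it was 0.37 for *Hsp90b1* (0.30 and -0.08), 0.72 for *Sdf2l1* (0.35 and -0.37) and 0.43 for *Creld2* (0.22 and -0.21). Some single differences were near 0, with -0.0072 for *Hsp90b1* in iHP replicate 1, -0.0314 for *Sdf2l1* in iHP replicate 2 and 0.0216 for *Creld2* in iBEC replicate 1. In the 2 iBEC libraries the median of all genes tested was itself above the control, by 0.22 and 0.26. The limma F test of a difference between stages called none of these 5 genes.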

How the results depend on the processing

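Of the count results, 68 settings kept the count within 1.5 times, 17 gave fewer and 10 gave more. Of the values for single genes, 267 kept direction and side of the threshold, 103 lost the call, 13 gained it and 8 turned sign. The number of genes called for genotype (1284, of which 832 were higher and 452 lower) was 686 with no filter, 326 without iHB, 132 without iHP, 1449 without iBEC (545 higher and 904 lower) and 792 to 1214 when single libraries of a pair were left out. The members called (4) were 1 with no filter, 0 without iHB, 1 without iHP, 3 without iBEC, 5 with upper-quartile scaling, 6 with quantile normalization and 2 to 3 without single libraries. Without iHB or iHP, *Atf5* was at adjusted p = 0.102 and 0.277 and *Shmt2* at 0.165 and 0.186 by limma. *Ddit4* passed with quantile normalization (0.0354). Signs turned for *Asns* (-0.0113 with upper-quartile scaling, -0.12 with quantile normalization), *Atf4* (-0.0697 with quantile normalization, -0.0674 without iHB, and -0.10 to 0.46 without single libraries of a pair, the lowest without L1L2_Alb iHP replicate 1) and *Trib3* (0.11 without iHP, and -0.23 to 0.20 without single libraries, above 0 without iHP replicate 2 and, at 0.02, without iBEC replicate 1), none of them called.

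For iBEC against iHB, 768 genes were called, with 492 under no filter and 493 to 1747 without single libraries, the highest without L1L2_Alb iHP replicate 2. Members called (1) were 5 with upper-quartile scaling, 4 with quantile normalization and 0 to 3 without single libraries. For iBEC against iHP, 553 genes were called, with 211 under no filter and 155 to 982 without single libraries, and members called ran from 0 to 1. For iHP against iHB, 0 genes were called, with 2 under upper-quartile scaling, 4 with a mean of 5 RPKM and 0 to 1 without single libraries. The F test of a difference between stages called 0 genes in each of the settings run.

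Replicate numbers are shared by the L1L2_Alb iHP and iBEC libraries, and the sources used here state no pairing. Over 13421 genes the deviations of same-numbered libraries had r = -0.022. In the 4 numbered libraries alone, 473 genes were called between iBEC and iHP without the replicate block and 906 with the replicate block, and 0 of the 34 genes in either.

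Each stage has a single control library, so the spread between controls of a stage was not measured. The lowest count was 67 reads among the 26 members with whole reads recovered.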

Other observations

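The heat shock response of the cytosol and the mitochondrial stress genes were read beside the ER genes. None of 10 cytosolic heat shock genes was called for genotype by limma, and 1 had an unadjusted p under 0.05. Their median log2 fold change was 0.21, with 7 above 0 and 3 below. Against the stage controls their median difference was 0.11 in iHB, 0.06 and -0.22 in iHP, and 0.47 and 0.51 in iBEC, where the medians of all genes were 0.22 and 0.26 in the iBEC libraries. In iBEC against iHP all 10 were below 0 with a median of -0.24, where 41.6% of all genes were above 0, and none was called. With upper-quartile scaling 7 were below 0 and 3 above, with a median of -0.09.

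None of the 7 mitochondrial stress genes was called for genotype by limma, none had an unadjusted p under 0.05, and their median was -0.02. *Hspd1*, the chaperonin of the mitochondrial matrix, fell in iBEC against iHP (log2 fold change -1.01, adjusted p = 0.0489 from limma). That call was lost without L1L2_Alb iHP replicate 1 (adjusted p = 0.154), iBEC replicate 1 (0.166) or iBEC replicate 2 (0.0801), and over the 12 other settings adjusted p ran from 0.0369 to 0.213.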
